A study of Mus musculus with 4 samples.

Results

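Neurog3 encodes the basic helix-loop-helix transcription factor that starts the enteroendocrine programme in the gut. Progenitors express it briefly, switch on further transcription factors and then fill with hormone and secretory granules, whose proteins include chromogranin B (Chgb). The genes described here were 8 of the 29161 genes in a single-cell count table of Neurog3-reporter cells, chosen for their relation to Neurog3 counts and to Chgb level per cell. They are a mix of known progenitor markers and of genes that led a group of progenitor-like cells, so values along Neurog3 and Chgb are given as a description and carry no test. They code for a neuronal tubulin (Tubb3), the secreted growth factor midkine (Mdk), an ETO-family transcriptional corepressor (Cbfa2t3), a subunit of the SWI/SNF (BAF) chromatin remodelling complex (Smarcd2) and a CoREST-family corepressor (Rcor2). The others are Gdap1l1, a paralogue of the mitochondrial gene Gdap1, the long non-coding RNA Miat and the zinc finger gene Zfp511. ETO and CoREST proteins bridge DNA-bound factors to histone deacetylases and, for CoREST, to the histone demethylase Kdm1a.

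The cells came from enteroids, epithelial mini-guts grown in Matrigel from female CD1 Neurog3eYFP/+ mice and kept 5 to 8 days with R-spondin-1, EGF and Noggin. Living (DAPI-negative) eYFP+ cells were sorted at 1 cell per well, 92 per plate, and 290 of the 368 sorted cells were in the table. Duodenum replicate 1, from a mouse of 39 weeks, gave 72 cells. Duodenum replicates 2 and 3, both from 12 weeks, gave 83 and 72 cells, and Jejunum replicate 1, also from 12 weeks, gave 63. All cells carried the same reporter allele, which marks cells that express Neurog3 and those descended from them for as long as eYFP protein persists. The sort was meant to take no cell outside that history, and its purity was not tested here. The labels do not say whether the plates came from separate animals, and tissue, age and plate cannot be told apart for the jejunum plate and the 39-week plate.

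Plate totals ran from 23893272 to 46490618 counts and cells from 202711 to 2312044 counts, Duodenum replicate 1 being the shallowest plate. In that plate 17 genes had 0 counts although every other plate held over 500 of each, among them Gip, Gcg, Isl1 and the member Gdap1l1. The other plates had 0, 0 and 1 such genes. The sort label was checked on Chgb, which had 5 or more counts in all 290 cells, yet its level ran from 64.6 counts per 1000000 counts (CPM) to 203752 CPM. A cell is called a holder of a gene below at 5 or more counts. For Chgb that limit set no cell apart, and how far it removes stray counts of other genes was not tested. Of the 290 cells, 39 carried goblet or Paneth markers and no hormone gene at a high level. They are set beside the other cells below, but they are sorted reporter cells too and not a background free of Neurog3. Of them, 4 had 5 or more Neurog3 counts, 11 had 1 to 4 and 24 had 0.

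The identity of the members is as follows, on GRCm38 with the GENCODE M21 annotation. Tubb3 (ENSMUSG00000062380) lies at chr8:123411424-123422015 on the plus strand, and Mdk (ENSMUSG00000027239) at chr2:91929805-91932297 on the minus strand. Cbfa2t3 (ENSMUSG00000006362) lies at chr8:122625141-122699109 and Smarcd2 (ENSMUSG00000078619) at chr11:106263179-106272972, both on the minus strand. Rcor2 (ENSMUSG00000024968) lies at chr19:7267325-7275225 and Gdap1l1 (ENSMUSG00000017943) at chr2:163438476-163455324, both on the plus strand. Miat (ENSMUSG00000097767), annotated as a long intergenic non-coding RNA, lies at chr5:112213228-112229395 on the minus strand. Zfp511 (ENSMUSG00000025470) lies at chr7:140036391-140040602 on the plus strand, and all but Miat are protein coding. Whether reads were counted by strand is not given in the sources used here, and Zfp511 overlaps Tubgcp2 on the opposite strand, which held 1075 counts against 3038 of Zfp511. Neurog3 itself (chr10:62133090-62134763) overlaps Fam241b on the opposite strand, with 11380 counts against 9336, so part of either gene's counts may belong to the other.

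Neurog3 binds E-boxes, short sites of the form CANNTG, so the promoters of the members were read for them. RefSeq windows (GRCm38.p6, 250 bases before to 50 after the start) were found for 6 members in 7 windows. Mdk and Gdap1l1 were not among them. The general form stood on either strand in 4 of the 7 windows, against 72.3% of the 32851 windows of all genes. CAGATG, a narrower E-box, stood in 1 of 7 against 17.2%, and CAGCTG in 1 of 7 against 16.3%; both are also counted as CANNTG. All of the narrower matches among members were in the upstream window of Cbfa2t3, and they are shown with the 1 match in the promoter of Neurog3. A half-site of the repressor REST, TTCAGCACC, a factor that works with CoREST proteins, was in 0 of 7 windows and in 0.371% of all windows. The capitals mark the E-box, and each sequence reads 5′ to 3′ on the gene's strand.
Cbfa2t3, 177 bases before the start, chr8:122699269-122699298, minus strand: ccggcaaccaggCAGATGgttcctgacgag
Cbfa2t3, 146 bases before the start, chr8:122699238-122699267, minus strand: aagctctgggcaCAGCTGcaggcccccgac
Cbfa2t3, 104 bases before the start, chr8:122699196-122699225, minus strand: atcactgtgacaCAGCTGgctgcctcaccc
Neurog3, 165 bases before the start, chr10:62132913-62132942, plus strand: ttgtccggaatcCAGCTGtgctctgcgggt
A match of letters is not a bound site, and binding was not measured here.

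The members fell into broadly held and rarely held genes. Smarcd2 had 5 or more counts in 75.2% of the 290 cells (exact Clopper-Pearson 95% interval 69.8 to 80.0), Rcor2 in 62.8% (56.9 to 68.3) and Cbfa2t3 in 55.2% (49.2 to 61.0). Tubb3 reached that count in 31.7% of cells (26.4 to 37.4) and Gdap1l1 in 19.3% (14.9 to 24.3). Miat and Zfp511 did so in 12.4% each (8.85 to 16.8), and Mdk in 1.38% (0.377 to 3.49). With every cell thinned to 100000 counts the shares were 71.0%, 54.5%, 47.6%, 27.2%, 15.9%, 10.7%, 8.97% and 0.690% in the same order. A few wells carried most of the rare genes: 7 wells held over 50% of all Miat counts and 7 did so for Zfp511, against 43 wells for Smarcd2. Intervals pool the cells of all plates and cover counting error only, and copies of 1 molecule may have been counted more than once. They leave out the spread between plates. Shares by plate ran from 66.3% to 86.1% for Smarcd2, 52.4% to 72.2% for Rcor2 and 50.0% to 61.1% for Cbfa2t3. They ran from 20.8% to 41.0% for Tubb3 and from 0% to 29.2% for Gdap1l1, which had 0 counts in Duodenum replicate 1.

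Mdk could not be followed along Neurog3. Its 216 counts included 135 in 1 well of Duodenum replicate 1, and it had 172, 8, 11 and 25 counts in Duodenum replicates 1, 2 and 3 and Jejunum replicate 1. In cells with 5 or more Neurog3 counts it stood at 0, 0, 0.10 and 0 CPM. It had 5 or more counts in 0 of 50 of these cells and in 3 of the 195 cells without Neurog3, too few to tell the classes apart. Mdk did not pass the filter on low counts in the comparisons of cell classes. In those comparisons 7 of the 8 members were tested.

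Cells were split by Neurog3 into 50 cells with 5 or more counts (Neurog3-high), 45 with 1 to 4 and 195 with 0. The Neurog3-high cells numbered 7, 12, 24 and 7 in the 4 plates, so 24 of the 50 came from Duodenum replicate 3. Their Neurog3 level was 121, 1288, 155 and 185 CPM. Median totals per cell were 415854, 462311 and 417485 counts at 5 or more, 1 to 4 and 0 Neurog3 counts, and goblet markers summed to 3759 to 15047 CPM over the plates in Neurog3-high cells and 6097 to 14075 CPM in cells without Neurog3. Counts were summed per plate and class and compared in edgeR with the plate as a block. Of 11959 genes tested, 2 passed an adjusted p of 0.05 (0.0167%), both lower in Neurog3-high cells, and 0 of the 7 members did. An unadjusted edgeR p under 0.05 was reached by 749 genes, and DESeq2 called 658 genes, 3 of them members. Over all genes tested the median was -0.49 on the log2 scale, and over the 7 members it was 1.20. Neurog3 both chose the members and made this split, so nothing is read from the distance between these medians.

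The 3 corepressor and remodelling genes were the members seen in most cells. Cbfa2t3, which recruits histone deacetylases to DNA-bound factors, had 721, 321, 154 and 123 CPM in Neurog3-high cells of Duodenum replicates 1, 2 and 3 and Jejunum replicate 1. In cells with 0 Neurog3 counts it had 263, 104, 68.2 and 103 CPM. By summed counts it was higher with Neurog3 in each plate, but the jejunum values were close to each other and the plates overlapped between the classes. One jejunum well held 65.0% of the Neurog3-high counts of Cbfa2t3. The mean of the cells' CPM ran the other way in that plate, at 99.8 in Neurog3-high cells and 132 in cells without Neurog3. The log2 fold change was 1.20 ± 0.32 (SE, n = 4 plates). Cells with 1 to 4 Neurog3 counts had 494, 131, 175 and 153 CPM, between the other classes in Duodenum replicates 1 and 2 and above both in the other plates. Shares of cells with 5 or more Cbfa2t3 counts were 71.4%, 66.7%, 54.2% and 57.1% in Neurog3-high cells and 51.0%, 48.3%, 40.5% and 54.3% in cells without Neurog3.

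Rcor2, the CoREST-family member, had 549, 484, 305 and 693 CPM in Neurog3-high cells and 187, 228, 241 and 129 CPM in cells without Neurog3 counts. The lowest Neurog3-high plate was thus above the highest Neurog3-zero plate, and the log2 fold change was 1.41 ± 0.39 (SE, n = 4 plates). Smarcd2, the chromatin remodelling subunit, had 488, 433, 672 and 1222 CPM against 581.6, 380, 441 and 359 CPM. The classes overlapped, with Duodenum replicate 1 in the opposite direction, and the log2 fold change was 0.63 ± 0.39. Without 1 plate in turn, the threshold on Neurog3 changed or another tool used, the Cbfa2t3 fold change stayed between 1.02 and 1.41, that of Rcor2 between 0.99 and 1.70 and that of Smarcd2 between 0.17 and 0.93.

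Tubb3, the neuronal beta-tubulin, had 34.7, 147, 249 and 162 CPM in Neurog3-high cells against 51.9, 101, 15.8 and 41.4 CPM without Neurog3. Duodenum replicate 1 went the other way, with 1 of its 7 Neurog3-high cells at 5 or more counts, and the difference was largest in Duodenum replicate 3. The log2 fold change was 1.49 ± 0.86. Zfp511 had 66.2, 19.9, 69.7 and 40.8 CPM against 17.6, 5.88, 9.06 and 21.0 CPM, higher in each plate, with a log2 fold change of 1.95 ± 0.81. In each plate 1 well held at least 54.4% of the Neurog3-high counts of Zfp511, and in Duodenum replicate 2 a single well held 100%.

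Miat had 0, 69.9, 90.7 and 195 CPM in Neurog3-high cells against 5.55, 54.2, 68.9 and 5.23 CPM, and its log2 fold change of 0.53 ± 1.63 was smaller than its error. Gdap1l1 had 159, 167 and 110 CPM against 150, 155 and 24.8 CPM in the 3 plates that held it, a log2 fold change of 0.83 ± 0.66 in a fit that also included the plate at 0. Both were nearly level between the classes in Duodenum replicates 2 and 3 and higher with Neurog3 in the jejunum plate. In Jejunum replicate 1, 1 well held 62.7% of the Neurog3-high counts of Miat and 1 well held 47.8% of those of Gdap1l1. By summed counts, 3 of the 7 tested members were higher in all 4 plates (Cbfa2t3, Rcor2 and Zfp511), beside 3.75% of all genes tested. Since Neurog3 chose the members, nothing is read from these counts.

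**Figure D1:**
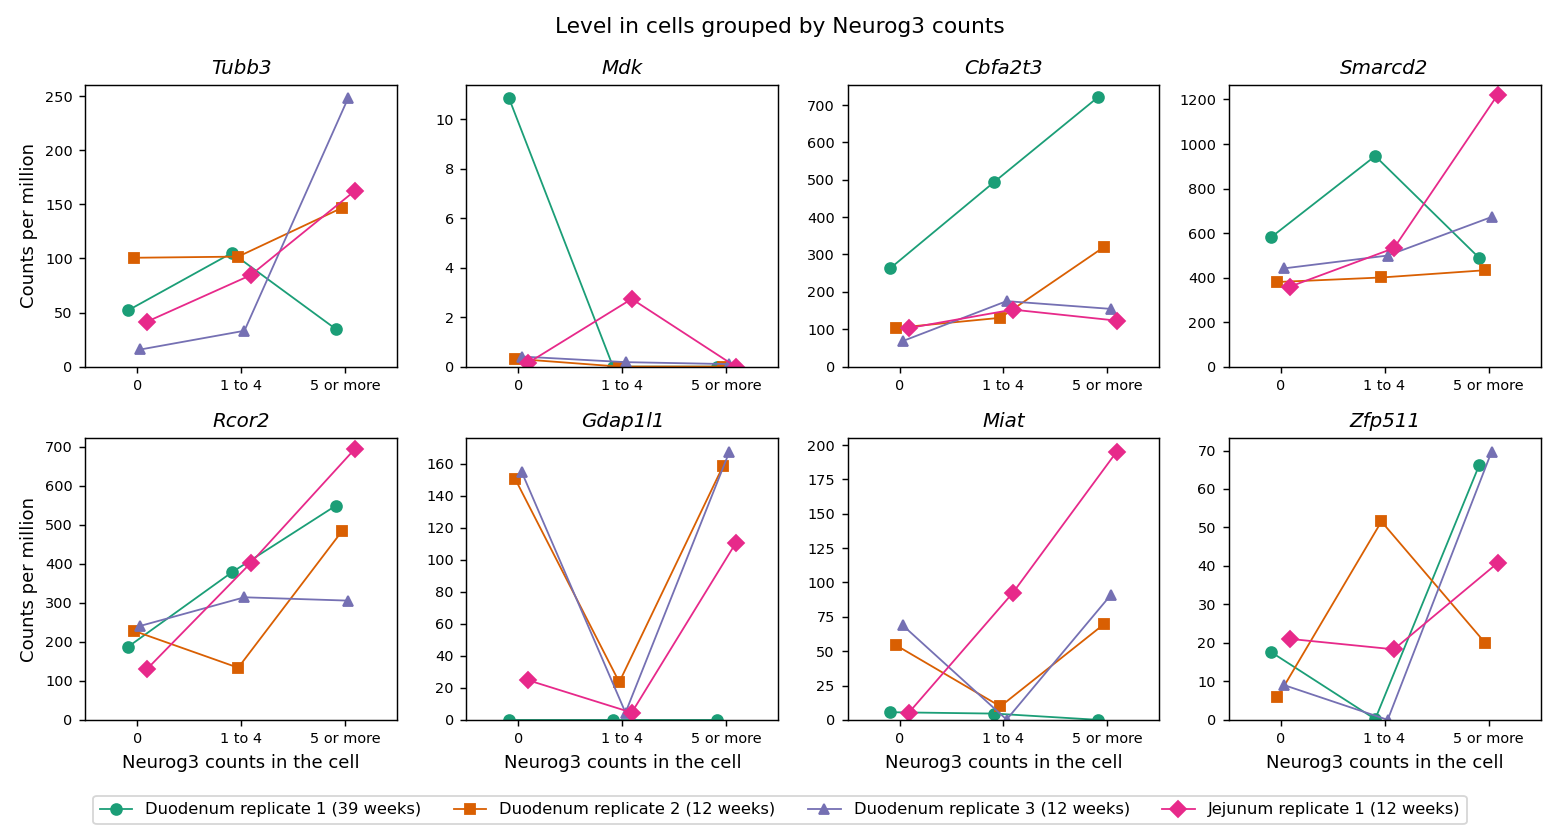
CPM (vertical axes, from 0, a scale for each gene) of the 8 members in cells grouped by Neurog3 counts (horizontal axes), with 1 point per plate from summed counts and lines joining the points of a plate. Cbfa2t3, Rcor2 and Zfp511 stood higher at 5 or more Neurog3 counts than at 0 in all 4 plates; Mdk was near 0 outside Duodenum replicate 1, and Gdap1l1 was at 0 in that plate.

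Ranks across single cells ordered the 4 members held most often as Cbfa2t3, Rcor2, Tubb3 and Smarcd2, while the fold changes put Tubb3 first, then Rcor2, Cbfa2t3 and Smarcd2. Spearman's rho of Cbfa2t3 CPM with Neurog3 CPM was 0.35, 0.27, 0.25 and 0.13 over the 72, 83, 72 and 63 cells of the plates. Its mean of 0.25 was exceeded by 2 of the 5374 genes detected at 5 or more counts in 10% or more of every plate's cells, and the median over these genes was -0.0012. The 2 genes, named after their values were seen, were Gadd45a, a stress-response gene, with 0.30 and Fam241b, which overlaps Neurog3, with 0.29. Rcor2 had 0.33, 0.13, 0.10 and 0.33 (mean 0.22, with 12 genes above it). Tubb3 had 0.14, 0.01, 0.44 and 0.21 (mean 0.20, with 19 genes above) and Smarcd2 0.04, 0.08, 0.22 and 0.30 (mean 0.16, with 59 above). The members were chosen for their relation to Neurog3, so nothing is read from these positions among all genes. Values within a plate share their library and its cross-well reads, and total counts enter every CPM.

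For the rarely held members the rank relation to Neurog3 depended on depth. With all counts, Zfp511 had a mean rho of 0.00 over the plates, Miat 0.05 and Mdk -0.13, and Gdap1l1 0.09 over the 3 plates that held it. With cells thinned to 100000 counts, Cbfa2t3 and Rcor2 kept a rho above 0 in 4 of 4 plates (means 0.19 and 0.14). Tubb3 did so in 2 plates (mean 0.18) and Smarcd2 in 3 (0.099). Thinning gave Zfp511 a mean of 0.11 (above 0 in 3 of 4 plates), Gdap1l1 0.11 (3 of 3) and Miat 0.072 (3 of 4), so these members did not stand below Smarcd2 as a group. Neurog3-high cells held 5 or more counts of 3.36 of the 8 members on average. Cells with 1 to 4 Neurog3 counts held 3.04 and cells with 0 counts 2.46, and after thinning the means were 3.12, 2.62 and 2.11. These means pool the plates, and in Duodenum replicate 1, which lacked Gdap1l1, they were 2.29, 2.81 and 2.02 before thinning. Since Neurog3 chose the members, nothing is read from these means, and no such mean over other genes was computed. The most in 1 cell was 7, in a Neurog3-high cell of Duodenum replicate 3.

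**Figure D2:**
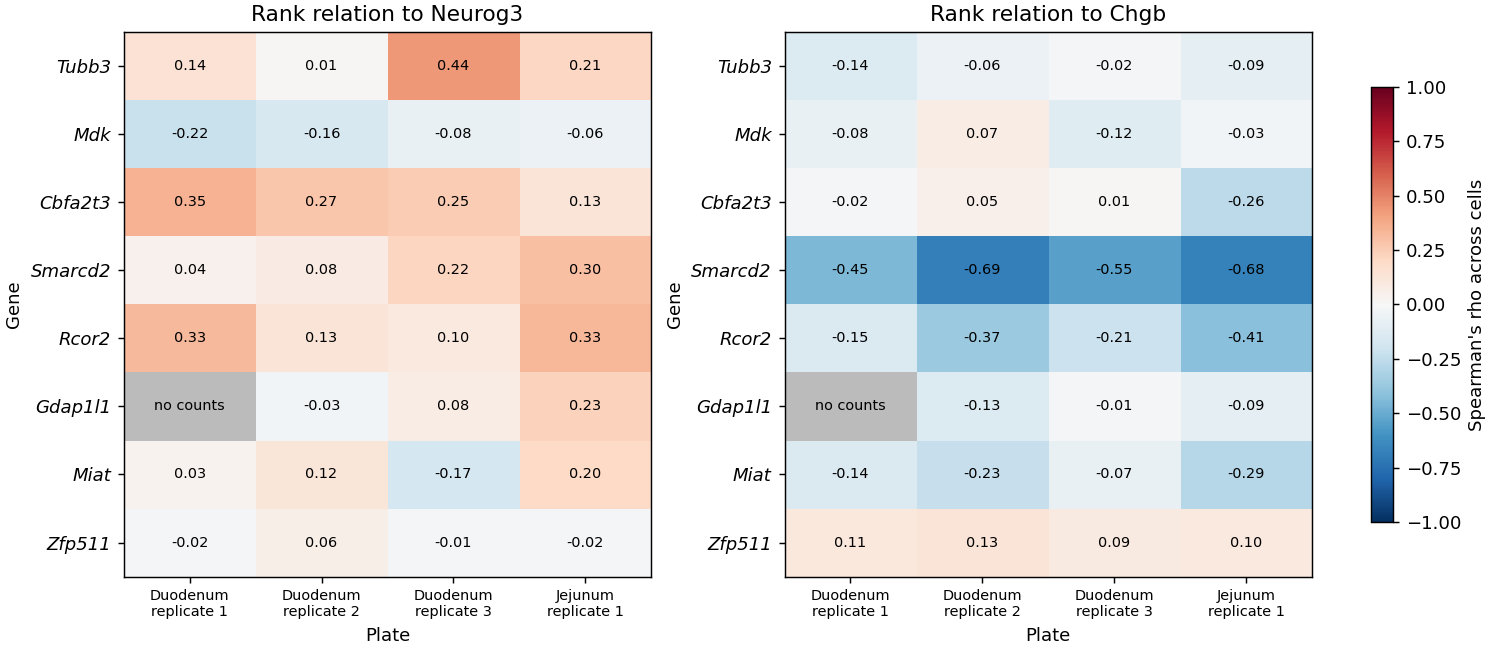
Spearman's rho across the cells of each plate (columns) between the CPM of each member (rows) and Neurog3 (left) or Chgb (right), coloured from blue (negative) to red (positive). Cbfa2t3 was positive with Neurog3 in all 4 plates (0.13 to 0.35), and Smarcd2 was negative with Chgb in all 4 (-0.69 to -0.45).

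Along Chgb the members parted. Each plate was divided into 3 equal parts by Chgb CPM, and the highest part was compared with the lowest. In the lowest part Chgb stood at 242, 335, 138 and 972 CPM and in the highest at 78976, 94639, 52218 and 80808 CPM. Of 11726 genes tested, 433 passed (3.69%), 256 of them lower in the highest part (2.18%), and DESeq2 called 2431. Of the 7 members tested, 1 passed, Smarcd2, in the lower direction; since Chgb chose the members, nothing is read from that count.

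Smarcd2 had 971, 751, 574 and 1110 CPM in the lowest-Chgb cells of Duodenum replicates 1, 2 and 3 and Jejunum replicate 1. The middle part had 831, 361, 740 and 341 CPM and the highest part 231, 62.8, 177 and 121 CPM. The highest-Chgb values were below both other parts in every plate and did not overlap with them. The log2 fold change was -2.99 ± 0.37 (SE, n = 4 plates), while the median over all genes was 0.08. It kept its direction but not its call without Duodenum replicate 1, 2 or 3, at -3.18, -2.66 and -3.22. Chgb itself, which made the split, lost its call without Duodenum replicate 2. Per cell, rho with Chgb was -0.45, -0.69, -0.55 and -0.68, and 118 of the 5374 genes had a lower mean. The members were chosen for their relation to Chgb too, so nothing is read from that position.

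Markers of goblet cells moved with the same split. The summed level of the 9 goblet markers in the table (of 10 listed) was 18828 to 28681 CPM in the lowest-Chgb part and 533 to 1133 CPM in the highest, and the 8 Paneth markers summed to 3756 to 9850 and 233 to 1088 CPM. Within the cells with neither a hormone gene nor goblet or Paneth markers at a high level, rho of Smarcd2 with Chgb was -0.32, -0.32, -0.12 and -0.77 over 33, 24, 32 and 15 cells. Within hormone-high cells it was -0.29, -0.51, -0.19 and -0.52 over 26, 48, 31 and 42 cells. The relation was thus negative in 4 of 4 plates in both subsets, and weakest in Duodenum replicate 3. Median Chgb in the cells with neither set was only 305, 740, 163 and 648 CPM. How far stray counts set the ranks at such levels was not tested.

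Rcor2 had 336, 320, 275 and 482 CPM in the lowest-Chgb cells and 240, 113, 231 and 117 CPM in the highest. Rcor2 and Smarcd2 were the members lower in all 4 plates, beside 13.3% of all genes. The highest-Chgb plates of Rcor2 all stood below its lowest-Chgb plates, by a log2 fold change of -1.43 ± 0.33. Within hormone-high cells rho of Rcor2 with Chgb was -0.23, -0.21, -0.06 and -0.12, negative in 4 of 4 plates as for Smarcd2. In cells without hormone genes or goblet and Paneth markers it was 0.04, 0.05, 0.50 and -0.49, with no common direction. The difference between the genes in those cells was not tested. Smarcd2 and Rcor2 were also the pair of members most alike across cells, with rho of 0.48, 0.39, 0.17 and 0.37.

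Cbfa2t3 showed no common direction along Chgb, with 309, 154, 94.4 and 258 CPM in the lowest part and 364, 114, 139 and 52.0 CPM in the highest. The log2 fold change was -0.82 ± 0.47, and rho was -0.02, 0.05, 0.01 and -0.26. Tubb3 was lower in 3 of 4 plates, at 57.5, 111, 62.9 and 116 CPM in the lowest part and 22.3, 49.8, 97.6 and 30.7 CPM in the highest (log2 fold change -1.32 ± 0.47). Its highest values were in the middle part in Duodenum replicates 1 and 2, at 114 and 171 CPM. Gdap1l1 was lower in the 3 plates that held it, at 192, 134 and 31.6 CPM against 30.6, 120 and 17.4 CPM (-1.56 ± 0.63). The fits for Miat (-4.15 ± 2.00) and Zfp511 (-0.44 ± 1.20) had wide errors.

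**Figure D3:**
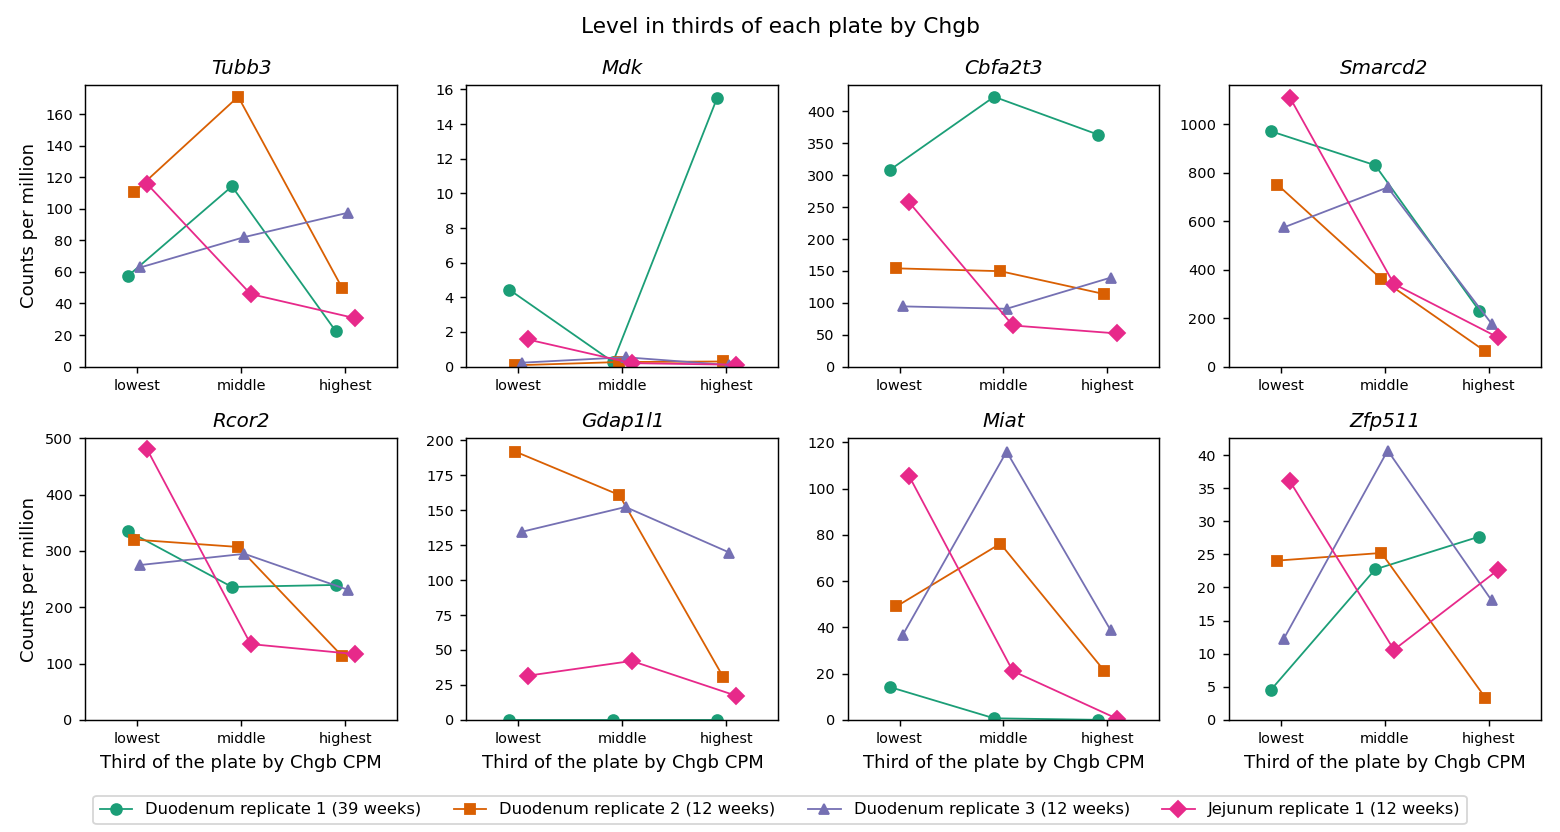
CPM (vertical axes, from 0, a scale for each gene) of the 8 members in the lowest, middle and highest of 3 equal parts of each plate by Chgb CPM, with 1 point per plate from summed counts. Smarcd2 fell from 574 to 1110 CPM in the lowest part to 62.8 to 231 CPM in the highest, while Cbfa2t3 went up in 2 plates and down in 2.

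Neurog3 and Chgb were also crossed. Cells with 5 or more or 0 Neurog3 counts were each divided at their plate's median of Chgb, which left 2 to 12 cells in a Neurog3-high state of a plate. Smarcd2 averaged 1251 ± 559 CPM (SD, n = 4 plates) in Neurog3-high cells of low Chgb and 236 ± 103 CPM in Neurog3-high cells of high Chgb. In cells without Neurog3 it averaged 705 ± 51.6 and 213 ± 139 CPM, so the levels at high Chgb lay close together with or without Neurog3. Rcor2 had 648 ± 307 and 346 ± 120 CPM in the Neurog3-high states and 275 ± 76.2 and 130 ± 39.1 CPM in the others, low Chgb first.

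Cbfa2t3 had 251 ± 156 CPM at low Chgb and 323 ± 374 CPM at high Chgb in Neurog3-high cells, against 169 ± 103 and 104.9 ± 75.7 CPM in cells without Neurog3. Tubb3 had 112 ± 71.9 and 188 ± 151 CPM against 68.6 ± 58.0 and 38.1 ± 16.6 CPM. By plate, Cbfa2t3 in Neurog3-high cells had 274, 459, 101 and 171 CPM at low Chgb and 875, 131, 224 and 63.0 CPM at high Chgb, so its higher mean at high Chgb came from Duodenum replicate 1. Without that plate the means were 243 at low and 139 CPM at high Chgb, the same direction as for Smarcd2 and Rcor2. Tubb3 kept a higher mean at high Chgb with any 1 plate left out, but without Duodenum replicate 3 the means were 103 and 119 CPM. Miat averaged 108 ± 90.5 and 63.6 ± 77.4 CPM with Neurog3 and 58.6 ± 56.7 and 11.9 ± 13.1 CPM without, and Zfp511 35.2 ± 29.4 and 51.6 ± 59.6 against 12.6 ± 7.45 and 14.2 ± 7.0 CPM. Gdap1l1 averaged 97.5 ± 66.0 and 125 ± 106 CPM with Neurog3 and 110 ± 123 and 56.7 ± 84.1 CPM without. Except for Mdk, each member had its highest mean in a Neurog3-high state, 7 members in all. Without Duodenum replicate 3 or Jejunum replicate 1 the count was 6. Neurog3 and Chgb chose the members, so nothing is read from these counts, and the share of all genes was not computed.

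**Figure D4:**
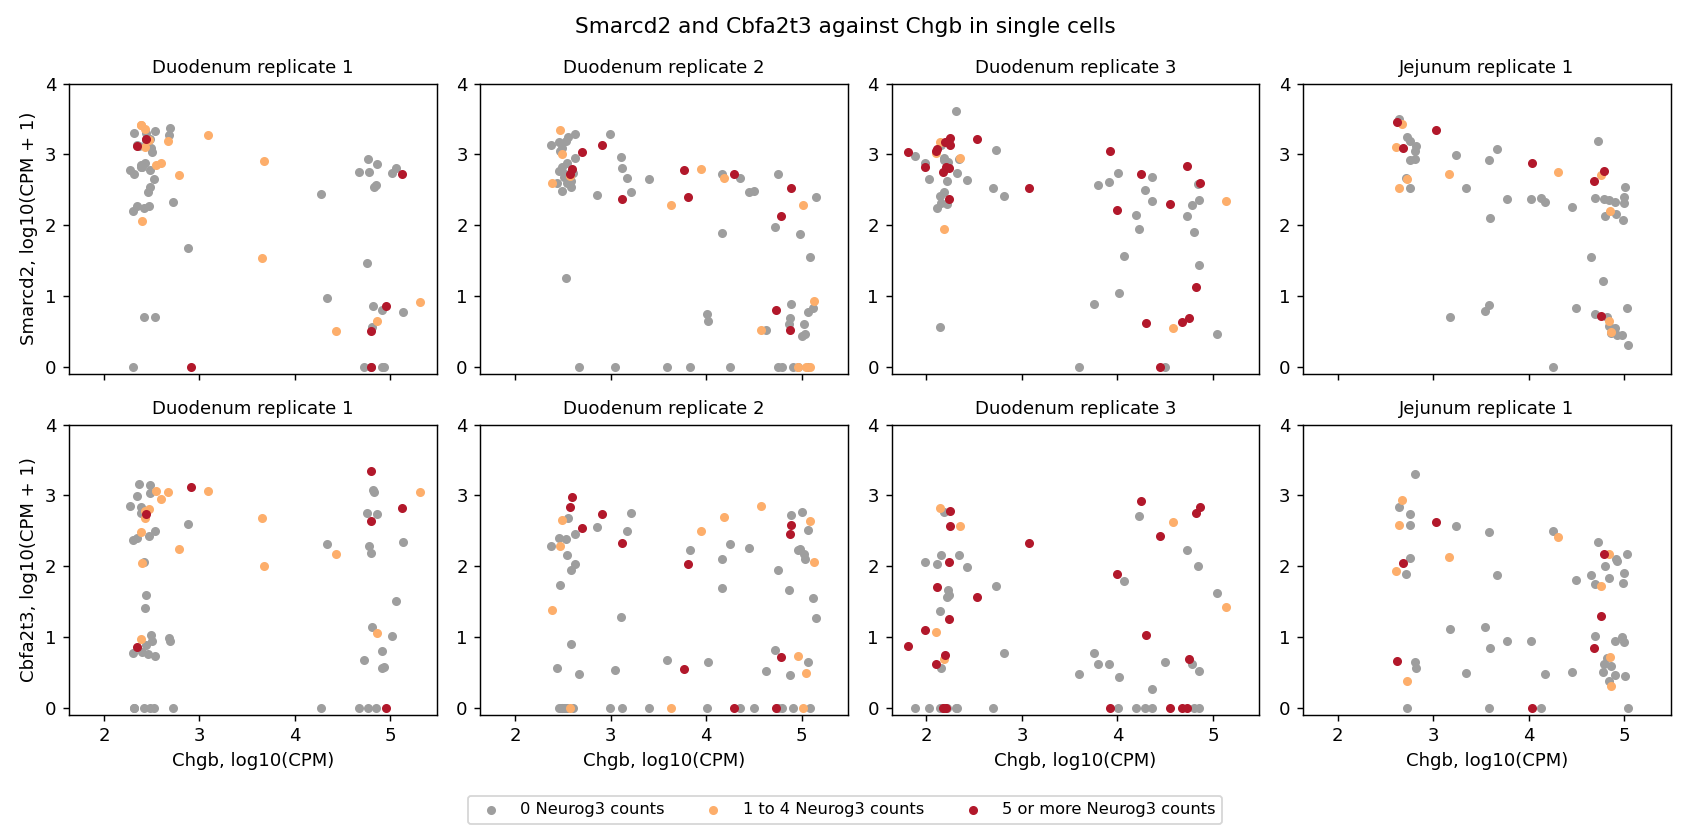
Single cells of each plate (columns) by Chgb on a log10(CPM) axis and by Smarcd2 (top) or Cbfa2t3 (bottom) as log10(CPM + 1), coloured by Neurog3 counts. Most cells of low Chgb lay in a band of high Smarcd2, while cells of high Chgb spread down to 0; Cbfa2t3 spread over the same range at low and high Chgb.

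Hormone classes were not in the rule that chose the members, and they were tested. Tph1-high cells (88), which make the serotonin-synthesis enzyme of enterochromaffin cells, were compared with 53 cells high in a peptide hormone gene. A hormone gene was high in a cell that held 5 or more counts of it and no less than 0.5% of the plate's total for the gene. The peptide-high class of Duodenum replicate 1, the plate with Gip, Gcg and Isl1 at 0, was unlike the others. It held 5 cells, with Chgb at 395 CPM against 8099 to 16177 CPM in the other plates, and the granule gene Scg2 at 1.31 CPM against 1739 to 2015 CPM. Of 10880 genes, 15 passed (0.138%) in edgeR, and 0 of the 7 members did; 666 genes reached an unadjusted p under 0.05, and DESeq2 called 627 genes, 1 of them a member. Neurog3 stood at 27.9, 120, 70.3 and 6.37 CPM in Tph1-high cells against 1.31, 26.8, 12.4 and 0.0965 CPM, higher in 4 of 4 plates without passing (edgeR adjusted p 0.605). Neurog3-high cells made up 15 of the 88 Tph1-high cells and 3 of the 53 peptide-high cells.

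Smarcd2 averaged 160 ± 60.7 CPM (SD, n = 4 plates) in Tph1-high cells, from 76.9 to 223 CPM, and 487 ± 265 CPM in peptide-high cells, from 247 to 828 CPM. It was lower in Tph1-high cells of all 4 plates, as 6.15% of all genes were, by a log2 fold change of -1.60 ± 0.37 (SE) that did not pass in edgeR (adjusted p 0.395). Chgb differed between these classes too, with 74878 ± 13918 against 9614 ± 7018 CPM. Cbfa2t3 (177 ± 136 against 342 ± 498 CPM) and Rcor2 (141 ± 35.4 against 178 ± 60.9 CPM) overlapped between the classes. Without Duodenum replicate 1, where peptide-high cells had 1088 CPM, Cbfa2t3 had 111 ± 47.9 against 93.4 ± 5.49 CPM (SD, n = 3 plates), and its log2 fold change turned from -0.32 ± 0.49 to 0.12 ± 0.49. Smarcd2 without that plate had 139 ± 54.0 against 374 ± 167 CPM, a log2 fold change of -1.46 ± 0.40. Tubb3 had 65.1 ± 34.3 against 46.8 ± 53.4 CPM, and the edgeR adjusted p of all members other than Smarcd2 was between 0.942 and 0.990. The SE was 0.88 to 1.83 on the log2 scale for Tubb3, Miat, Gdap1l1 and Zfp511, too wide for a 2-fold difference to be detectable.

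Smarcd2, Rcor2 and Cbfa2t3 were also held by most goblet and Paneth marker cells, which had no hormone gene at a high level. In the 39 goblet or Paneth marker cells the goblet markers summed to 38127 to 53457 CPM, against 475 to 1196 CPM in Tph1-high cells. Smarcd2 averaged 802 ± 207 CPM there (SD, n = 4 plates), beside 799 ± 231 CPM in the 104 cells with neither marker set. Rcor2 averaged 352 ± 172 beside 383 ± 100.0 CPM, and Cbfa2t3 240 ± 83.7 beside 169 ± 105.3 CPM. None of these 3 differences in CPM was larger than the spread between plates. Shares of cells with 5 or more counts were 98.1% ± 3.85 of marker cells and 83.1% ± 10.1 of the cells with neither set for Smarcd2. They were 83.4% ± 20.3 and 78.1% ± 13.3 for Rcor2 and 76.7% ± 10.5 and 47.7% ± 2.57 for Cbfa2t3. Unlike the CPM, the shares of Cbfa2t3 and Smarcd2 were higher in marker cells by more than either SD, and those of Rcor2 were not. These differences in share were not tested. Of these 39 cells, 4 were Neurog3-high.

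Tubb3 and Zfp511 were lower in the marker cells on average. Tubb3 averaged 23.0 ± 26.2 CPM in goblet or Paneth marker cells and 149 ± 52.0 CPM in cells with neither marker set, with 19.3% ± 18.2 and 41.9% ± 8.65 of cells at 5 or more counts. Its highest goblet or Paneth plate, at 61.0 CPM, was below its lowest plate of the other cells, at 104 CPM. Zfp511 averaged 11.2 ± 20.4 and 39.9 ± 10.6 CPM. Those unmarked cells also held 27 of the 50 Neurog3-high cells. Miat (49.4 ± 59.4 and 59.4 ± 33.7 CPM) and Gdap1l1 (52.5 ± 90.8 and 87.9 ± 71.6 CPM) did not differ by more than their spread.

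**Figure D5:**
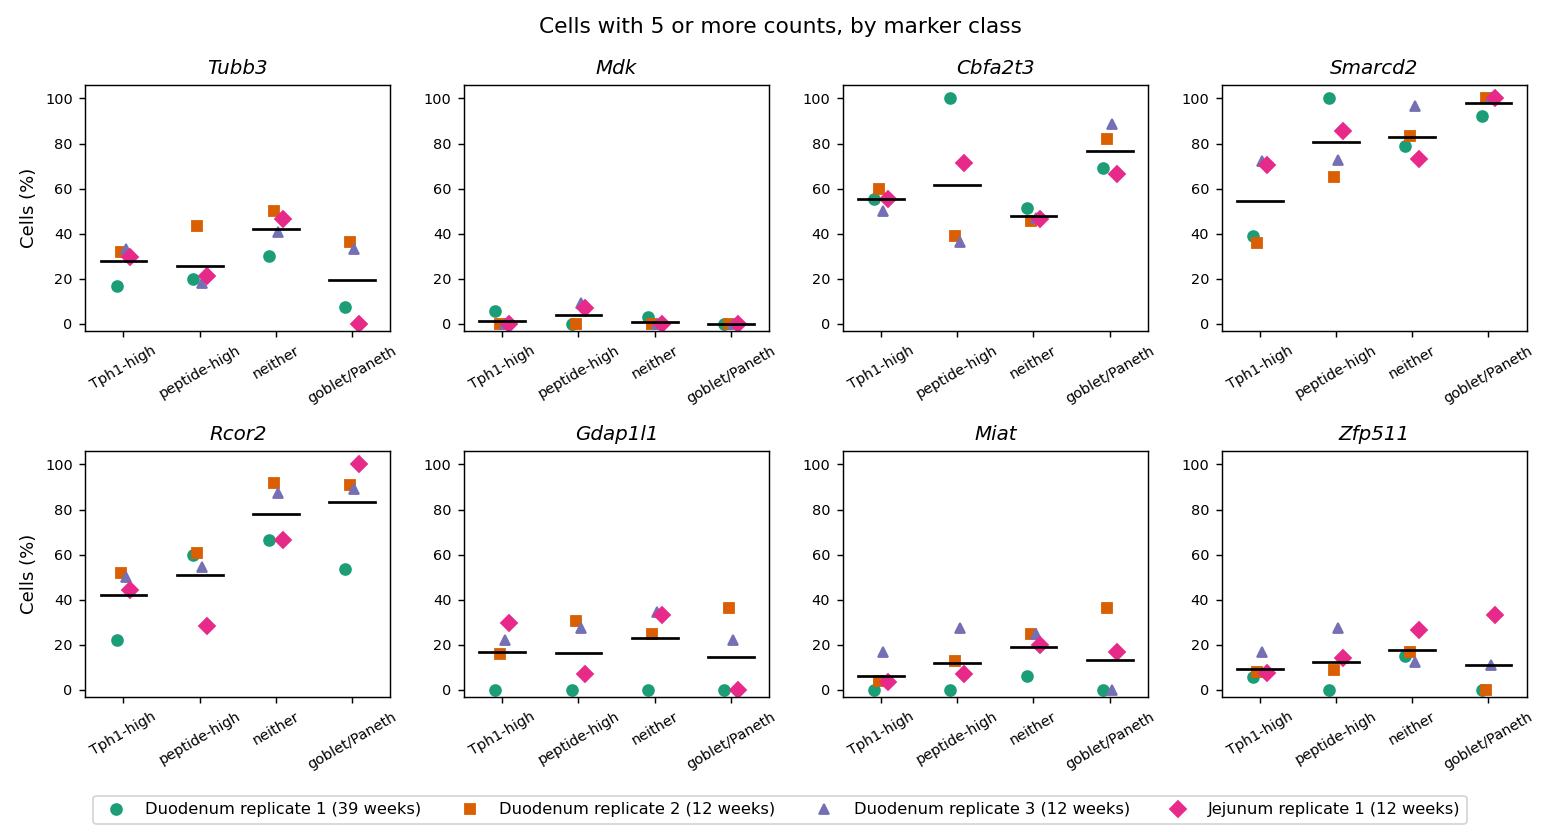
Percentage of cells with 5 or more counts of each member (vertical axes) in Tph1-high, peptide-hormone-high, unmarked and goblet or Paneth marker cells, with 1 point per plate and a bar at the mean of the plates. Smarcd2 was held by 92.3% to 100% of goblet or Paneth marker cells, and Tubb3 by 0% to 36.4% of them against 30.3% to 50.0% of unmarked cells.

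The tissue and age comparisons each had 1 plate in 1 arm, so a member that was not called is not shown to be alike between the arms. Between Jejunum replicate 1 and the 3 duodenum plates, 0 of 19329 genes passed in edgeR (0%), 819 reached an unadjusted p under 0.05 and 731 passed in DESeq2, none of the 8 members among them. The smallest edgeR adjusted p of a member was 0.961, for Cbfa2t3 at a log2 fold change of -0.81 ± 0.72. Between the plate of 39 weeks and the duodenum plates of 12 weeks, 0 of 18480 genes passed in edgeR (0%), 1412 reached an unadjusted p under 0.05 and 920 passed in DESeq2, 3 of them members: Gdap1l1 (adjusted p 1.06e-08), Miat (6.2e-05) and Cbfa2t3 (0.0402). Gdap1l1 also passed in edgeR without the filter on low counts and after thinning, and Miat without the filter. Cbfa2t3 had 365 CPM in the 39-week plate and 138 and 107 CPM in the others, 1.43 ± 0.42 higher on the log2 scale (edgeR adjusted p 0.620). Miat had 4.73 CPM against 47.2 and 64.5 CPM, a difference of -3.73 ± 0.71 on that scale (edgeR adjusted p 0.548).

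Gdap1l1 had 0 of 23893272 counts in the 39-week plate, which allows up to 0.126 CPM, and 126 and 136 CPM in the other duodenum plates. It was 1 of the 17 genes at 0 only there, with Gip, Gcg and Isl1, so the 0 may not be the level in those cells, and the limit covers counting error only. Whether the plates differed in processing was not tested, and age and plate cannot be told apart. The remaining members had these levels. Smarcd2 had 655, 391 and 511 CPM in the duodenum plates and 464 CPM in the jejunum plate, and Rcor2 269, 243, 269 and 223 CPM. Tubb3 had 62.3, 107, 80.0 and 59.1 CPM, and Zfp511 18.8, 17.1, 23.8 and 22.4 CPM.

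Paralogues and partners were read for comparison. Among ETO genes, Runx1t1 stood with Cbfa2t3: it had 277, 467, 298 and 394 CPM in Neurog3-high cells against 126, 119, 172 and 187 CPM without Neurog3 (log2 fold change 1.31 ± 0.29, edgeR adjusted p 0.457). The third ETO gene, Cbfa2t2, had a fold change of -0.35 ± 1.43. Runx1t1 was also higher in the highest-Chgb part of each plate (1.31 ± 0.35, edgeR adjusted p 0.112). Rcor1, a paralogue of Rcor2, had 192, 60.5, 46.2 and 60.6 CPM at high Chgb against 55.9, 2.02, 24.5 and 19.8 CPM at low Chgb (1.83 ± 0.76, edgeR adjusted p 0.253), the opposite direction to Rcor2 in all 4 plates. Kdm1a, the demethylase partner of CoREST proteins, was higher with Neurog3 in each plate, at 112, 176, 84.5 and 89.1 against 64.7, 136, 28.1 and 37.7 CPM (1.06 ± 0.44, edgeR adjusted p 0.793). Hmg20b, on the same corepressor list, was lower with Neurog3 in each plate. It had 74.4, 46.2, 32.5 and 48.0 against 81.1, 96.6, 68.5 and 65.0 CPM (-0.61 ± 0.51, edgeR adjusted p 0.896).

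Of the 14 tested genes of the ETO and corepressor list, 0 passed for Neurog3 and 0 for Chgb, with median log2 fold changes of -0.27 and 0.19. Along Neurog3, 5 of these 14 had a positive fold change. Of 14 tested BAF genes 0 passed in either comparison (medians 0.09 and 0.06). Smarca4, the ATPase of the complex, was higher with Neurog3 in each plate, at 328, 311, 131 and 392 against 213, 213, 95.9 and 146 CPM (0.82 ± 0.31, edgeR adjusted p 0.755). Smarcd1, the paralogue of Smarcd2, had a fold change of 0.06 ± 0.98 along Chgb, where Smarcd2 had -2.99.

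Among 11 tested tubulin and microtubule genes, 2 passed in the lower and 1 in the higher direction at high Chgb. Over all genes tested these shares were 2.18% and 1.51%. Of the 11 genes, 7 had a positive fold change, and 5 were higher and 3 lower in every plate. Tubb5 fell by 1.63 ± 0.24 on the log2 scale (edgeR adjusted p 0.0209) and Tubb2b by 1.95 ± 0.34 (edgeR adjusted p 0.0336), both beta-tubulins like Tubb3. The beta-tubulins Tubb2a (2.00 ± 0.41, edgeR adjusted p 0.0588) and Tubb4a (3.25 ± 1.84, edgeR adjusted p 0.380) were higher in every plate without passing. Map1b, a microtubule-associated protein of neurites, rose by 3.04 ± 0.46 (edgeR adjusted p 0.0240). Leaving out 1 plate in turn ended the call of Tubb5 and Tubb2b in 4 of 4 refits and that of Map1b in 3, with edgeR adjusted p up to 0.180. None of the 11 passed along Neurog3, where Tubb2b had 1.29 ± 0.52 and Tubb5 0.20 ± 0.44. None of 9 tested midkine-pathway genes and of 6 mitochondrial-dynamics genes passed in either comparison, with medians of -1.80 and 0.06 along Neurog3 and 0.61 and 0.18 along Chgb.

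Of 17 early endocrine genes, 0 passed along Neurog3, 11 had a positive fold change and 5 were higher in every plate. Both of the latter counts include Neurog3, which made the split. Of all genes tested, 3.75% were higher in every plate. Pax4, an early endocrine transcription factor, had 326, 275, 344 and 144 CPM against 153, 113, 55.7 and 58.1 CPM. Gadd45a had 746, 511, 660 and 438 against 300.4, 186, 205 and 84.5 CPM. Neurod1 (log2 fold change 0.80 ± 0.31) and Mfng (2.34 ± 1.03) were also higher in every plate. Cdkn1a was lower in every plate, at 259, 747, 297 and 229 against 697, 1380, 378 and 719 CPM (-1.02 ± 0.29). Of 15 late endocrine genes 0 passed along Neurog3, 3 had a positive fold change and 5 were lower in every plate. The share of all genes lower in every plate is not given here, so nothing is read from that count. Along Chgb, which made the split and is left out of this count, 4 of the other 14 late genes passed in the higher direction. They were Lmx1a, Pcsk1n, Chga and Fev, beside 1.51% of all genes tested. Of the early genes 1 passed in the lower direction, beside 2.18% of all genes tested. It was Hes6, a helix-loop-helix factor of early progenitors (-1.90 ± 0.30, edgeR adjusted p 0.0270). Hes6 and Fev passed in 1 of 4 refits without a plate, Chga in 2, Chgb and Lmx1a in 3 and Pcsk1n in 0; the refit without Duodenum replicate 2 called none of them. These lists were chosen with results of the same cells known.

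The genes most like each broadly held member in rank across cells differed between members. For Smarcd2 they were Tmsb4x, which binds actin monomers (mean rho 0.60 over 4 plates), and the ribosomal protein genes Rps7 (0.58) and Rps24 (0.57). For Rcor2 they were Rps21, Tpt1 and Gm5963, all at 0.39. For Cbfa2t3 they were Calr (0.26), a chaperone gene of the endoplasmic reticulum, the chromatin remodeller gene Chd7 (0.25) and Sox4 (0.25), a transcription factor gene of early endocrine cells. For Tubb3 they were Ubb, Hnrnpk and Csnk2b, at 0.24 each, with rho between -0.02 and 0.05 in Duodenum replicate 1. Rank relations to a cell's total counts were weak for Cbfa2t3 (mean rho 0.04) and negative in all 4 plates for Smarcd2 (-0.19) and Rcor2 (-0.15).

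For the rarely held members the closest genes reached no higher than 0.27: Pgs1 (0.27) for Miat, AI413582 (0.25) for Zfp511 and Plpbp (0.21) for Mdk. In counts this sparse such values describe shared wells and no more. Gdap1l1 was given no such list because 1 plate lacked it, and its highest rho with another member was 0.21, with Miat, over 3 plates.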

How the data were processed

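Polyadenylated RNA of sorted single cells was sequenced with the BD Precise WTA plate kit, per the labels' protocols. The deposited table holds whole-number counts by gene for each retained well, and they were used as counts. The submitters' processing notes name the build mm10 and bcl2fastq 2.17.1.14, cutadapt 1.10, Bowtie2 2.2.8, STAR 2.5.3a, UMI-tools 0.4.4 and HTSeq 0.6.1, with no role or order. The cell filter, the use of strand and any collapsing of copies by molecular index were not given in the sources used here. A single gene reached up to 643177 counts in 1 well. Columns were matched to samples by the experiment number in their names and the pool number in the titles, and 0 columns were left without a sample. All 4 plates shared 41 well positions, 0 columns were identical, and no doublet caller was run because wells received 1 sorted cell.

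Plates, never cells, were the replicates, and p-values measure only the spread between these plates. CPM is counts per 1000000 counts of the summed class or of the cell. Class sums, from plates where each class held 5 or more cells, were tested with edgeR 4.0.16 (quasi-likelihood, TMM, filterByExpr, plate as a block, Benjamini-Hochberg over all genes tested, threshold 0.05) in R 4.3.3, checked on simulated counts. Both classes of a comparison come from the same plate, which is the source of the pairing. A hormone gene was high in a cell at 5 or more counts and 0.5% of its plate's counts. Goblet or Paneth marker cells had at least 3 markers of 1 kind at 5 or more counts and 2% of the plate's counts, and no high hormone gene. Thinning drew 100000 counts per cell with a fixed seed. A count of 0 was limited by 3 counts.

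The members, gene lists and thresholds were chosen with earlier results of these data known. The rule for names was the 8 members, Neurog3, Chgb, their paralogues and partners, the 3 genes most alike in rank for each member, and listed genes that moved alike in every plate. Alternatives were DESeq2 1.42.0, its size factors, no filter, each plate left out, thinned cells, no block and other class limits. Promoter windows were from RefSeq. No protein sequences or genome sequence were used here.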

Additional observations from a re-analysis of the deposited data

Results flagged for a closer look

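In 31 sets of per-plate values no plate lay far from the others by Dixon's test, whose limit chance passes in about 1 set in 20. In 1 set the jejunum plate went the opposite way to every duodenum plate, and how often chance gives that was not tested. Rcor2 was 0.30 higher on the log2 scale in Tph1-high than in peptide-hormone-high cells of Jejunum replicate 1, while it was lower in all 3 duodenum plates. The difference between tissues was not tested, and with 1 jejunum plate tissue and plate cannot be told apart.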

How the results depend on the processing

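Every fold change of a member was recomputed under each alternative. Of these member values, 276 kept their direction and their side of the threshold, 15 passed it anew, 3 fell out of it and 11 turned direction without a call. Of the counts of genes or members, 63 stayed within 1.5 times and 37 moved beyond that. Leaving plates out of the levels by Neurog3 and Chgb was chosen after seeing the data. The counts of genes called depended most on the tool: DESeq2 called 658 genes along Neurog3 (2 in edgeR), 2431 along Chgb (433), 627 between hormone classes (15), 731 between tissues (0) and 920 between ages (0). Thinned cells gave 4, 26 and 23 calls for Neurog3, hormone classes and age, and no filter on low counts gave 30, 9 and 226 for hormone classes, tissue and age. With no replicate block (the plate left out of the model) the counts were 1, 358 and 15 for Neurog3, Chgb and hormone classes, and no member's call changed. A Neurog3 threshold of 1 or more counts gave 0 calls, and Chgb divided at the median gave 283. Leaving out 1 plate in turn gave 0 to 3 calls for Neurog3, 7 to 237 for Chgb, 7 to 18 for hormone classes and 0 to 10 for tissue. The lowest Chgb count, 7, came without Duodenum replicate 2, with 30, 29 and 237 without Duodenum replicates 1 and 3 and Jejunum replicate 1; fewer plates leave fewer residual degrees of freedom, and other causes were not tested. For age no such refit was run, because it leaves 1 plate against 1. Members with a rho above 0 to Neurog3 in every plate numbered 4, with 4 to 5 when a plate was left out and 2 after thinning. Since Neurog3 chose the members, nothing is read from these counts, and the share of all detected genes was not computed. Among members, the direction along Neurog3 turned for Miat without Jejunum replicate 1 (-0.76) and for Gdap1l1 with 1 or more Neurog3 counts (-0.15), and along Chgb for Zfp511 without Duodenum replicate 2 (0.44). The small number of plates and the few wells that hold Miat, Zfp511 and Mdk limit what these counts can show.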
